A study of Mus musculus with 7 samples.

Results

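Neurotrophins and the ligands of the glial cell line-derived neurotrophic factor (GDNF) family are secreted factors best known for keeping neurons alive and guiding their axons, and both kinds of factor and their receptors are also made in developing teeth. The 9 genes described here were chosen by name: the neurotrophins Bdnf and Ntf3, the GDNF family ligands Gdnf, Nrtn and Artn, the ligand-binding co-receptor Gfra1, and the receptor tyrosine kinases Ntrk2, Ntrk3 and Ret. These are 9 of the 25700 gene IDs in the count files, and all 9 were among the 14791 genes tested. Earlier results of these data were known when the 9 genes were chosen. Beside them, 15 relatives among the ligands and receptors of both families are given. The samples were epithelium from the lower incisors of newborn mice (PN0), freed from the mesenchyme with the enzyme Dispase, and the design text of the series names its posterior portion. K14;Nogo-A pups carried 1 K14cre allele and a floxed Nogo-A gene on both chromosomes (K14cre cre/+; Nogo-A fl/fl), and the controls were labelled wild-type. The keratin 14 promoter drives Cre in epithelial cells, so that the deletion is directed to the epithelium and not to mesenchymal, vascular or nerve cells. The 7 libraries were 4 K14;Nogo-A (replicates 1, 2, 7 and 10) and 3 wild-type (replicates 3, 8 and 9), each from 1 pup with its left and right incisors pooled.

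As background, each neurotrophin prefers a particular Trk receptor: Bdnf and neurotrophin-4/5 (Ntf5) bind Ntrk2 (TrkB), and Ntf3 binds Ntrk3 (TrkC). All of them also bind Ngfr (p75NTR), which has no kinase and is one of the partners of the Nogo receptor. Ligands of the GDNF family first bind a GPI-anchored co-receptor, Gfra1 for Gdnf, Gfra2 for Nrtn, Gfra3 for Artn and Gfra4 for Pspn, and the pair then activates the kinase Ret. In the mouse tooth, neurotrophins and Gdnf have been located in the mesenchyme or the epithelium according to the stage, and pulp-derived factors attract the trigeminal axons.

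The libraries held between 20929207 and 41219439 counts. Rtn4, the gene that encodes Nogo-A, had 297 to 344 CPM (the usual counts-per-million scale, on normalised library totals) in K14;Nogo-A against 277 to 346 CPM in wild-type, and its gene-level count also holds the Nogo-B and Nogo-C transcripts, so that it does not check the deletion. The epithelial keratins Krt5 and Krt14 (mean 3405 and 2448 CPM in K14;Nogo-A, 2761 and 1982 CPM in wild-type) and the enamel genes Amelx and Ambn were abundant, and so were the mesenchymal collagens Col1a1 and Col1a2 (mean 12053 and 3416 CPM in K14;Nogo-A, 22882 and 6680 CPM in wild-type). The 24 mesenchyme markers all had negative fold changes, beside 51.5% of all genes tested. Of these markers, 8 were lower past the study's thresholds, beside 2.74% of all genes tested. The mean log2 CPM of the 24 markers reached 7.44 to 7.63 in K14;Nogo-A, against 8.02 to 8.20 in wild-type, without overlap. K14;Nogo-A replicate 1 stood apart from its group on the first principal component of all genes tested (16.5 against -29.2 to -19.2 for the other K14;Nogo-A libraries, and -0.36 to 31.4 in wild-type). The Y-linked genes were high in K14;Nogo-A replicate 1 and in wild-type replicates 3 and 8 (mean log2 CPM 4.94 to 5.27) and near the floor in the other 4 libraries (-3.71 to -3.04), and the pups' sex is not stated by the labels or methods. In RNA from whole tissue, fewer cells of a type and less RNA per cell cannot be told apart.

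The first question was whether the levels of these factors and receptors differ between K14;Nogo-A and wild-type dental epithelium. Bdnf and Gfra1 were lower in K14;Nogo-A past the study's thresholds (unadjusted P at or under 0.05 and log2 ratio at least 0.5 away from 0), and their libraries did not overlap between the genotypes. The other 7 genes did not pass these thresholds. Of all genes tested, 4.77% were past the thresholds, 2.02% higher and 2.74% lower in K14;Nogo-A, and 11.5% had libraries that did not overlap between the genotypes. After Benjamini-Hochberg adjustment over all genes tested, 0.0338% (5 of 14791, all lower) had an adjusted p under 0.05, and none of the 9 genes was among them (edgeR quasi-likelihood test, 2 of 9 at an unadjusted p under 0.05, beside 12.9% of all genes tested). DESeq2, which gave no adjusted p for Bdnf and Ntf3, and limma-voom also called none of the 9 at an adjusted p under 0.05, with 2 and 3 of them at an unadjusted p under 0.05. Of the 14791 genes tested, DESeq2 called 288 at an adjusted p under 0.05 and limma-voom 4. Past the study's thresholds were 698 genes with DESeq2 and 876 with limma-voom. The fold change was negative for 8 of the 9 genes, with a median log2 fold change of -0.28 over the 9, beside a median of -0.01 and 51.5% negative over all genes tested.

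**Figure D1:**
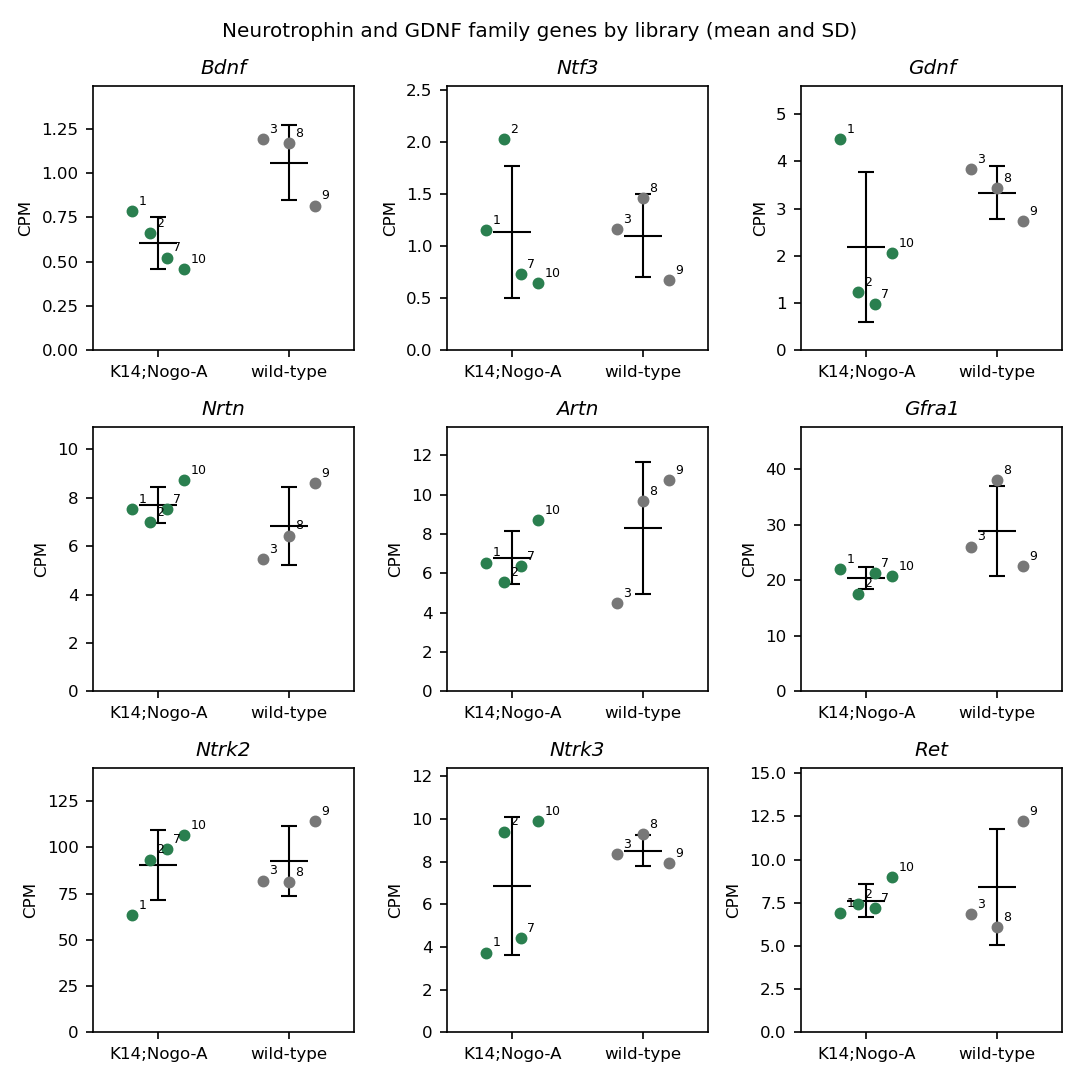
CPM of each of the 9 genes in the 4 K14;Nogo-A libraries (green) and the 3 wild-type libraries (grey), with replicate numbers, the mean (long bar) and the SD (capped bar); each panel has its own linear axis from 0. The green and grey points do not overlap for Bdnf (up to 0.784 CPM in K14;Nogo-A, from 0.816 CPM in wild-type) and Gfra1 (up to 21.97 CPM in K14;Nogo-A, from 22.6 CPM in wild-type), and they overlap for the other 7 genes.

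Among the neurotrophins, Bdnf supports sensory neurons that express Ntrk2. The gene (ENSMUSG00000048482, GRCm38 chr2:109674700-109727007, plus strand) has 11 annotated transcripts, all coding, that start at several alternative first exons, and the count sums them. Bdnf had 0.784, 0.663, 0.523 and 0.458 CPM in K14;Nogo-A replicates 1, 2, 7 and 10, against 1.19, 1.17 and 0.816 CPM in wild-type replicates 3, 8 and 9. Every K14;Nogo-A library lay below every wild-type library, with a narrow gap between K14;Nogo-A replicate 1 and wild-type replicate 9. The means were 0.607 ± 0.146 CPM in K14;Nogo-A and 1.06 ± 0.211 CPM in wild-type (SD, n = 4 and 3). Its log2 fold change was -0.84 ± 0.32 (SE), with a 95% interval of -1.52 to -0.15, an unadjusted p of 0.0214 and an adjusted p of 0.303. The exact two-sided permutation test over all 35 arrangements of the libraries gave p = 0.0571, where 0.0286 is the smallest it can give. These values rest on 12 to 17 counts per library in K14;Nogo-A, against 17 to 50 in wild-type, and 8.76% of the genes tested had a lower mean CPM. An antisense gene, Gm45346, shares 14.4% of the Bdnf exon bases, and neither labels nor methods state whether counting used strand.

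The RefSeq promoter table (GRCm38.p6) holds 7 of the 9 genes, with 15 start sites. The windows of 250 bases before and 50 after each start were searched on both strands for the core of the cAMP response element TGACGT, through which CREB acts on Bdnf in neurons, for the heat shock element GAANNTTC and for the TATA box TATAAA. Of the 32851 windows in the table, 7.51% held the CRE core, 7.86% the heat shock element and 13.6% the TATA box. Of the Bdnf windows, 1 held the CRE core and another the heat shock element. The bases before the Bdnf start that has the CRE core are shown because Bdnf had the larger change of the pair past the thresholds, at chr2:109692186-109692435 (plus strand), with the match in capitals as it reads on the reverse strand. The counts per gene do not say which start was used, and a match is a stretch of letters, not a tested site.
Bdnf: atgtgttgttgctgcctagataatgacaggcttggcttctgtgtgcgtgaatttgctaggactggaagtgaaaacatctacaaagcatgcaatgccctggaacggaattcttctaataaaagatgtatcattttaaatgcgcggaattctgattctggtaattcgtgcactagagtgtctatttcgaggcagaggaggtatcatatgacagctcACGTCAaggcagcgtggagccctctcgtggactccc

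Ntf3, the ligand of Ntrk3 and a factor for proprioceptive neurons, overlapped between the genotypes. The gene lies at chr6:126101412-126166910 on the minus strand. It had 1.15, 2.03, 0.732 and 0.648 CPM in K14;Nogo-A, against 1.17, 1.46 and 0.672 CPM in wild-type, in the order of replicates used above and from here on. K14;Nogo-A replicate 2 was the highest of all libraries, and the others spread over the same range in both genotypes. This gave a log2 fold change of -0.01 ± 0.40 (SE), with a 95% interval of -0.88 to 0.87, which covers sizeable changes of either sign, at 14 to 60 counts per library (adjusted p = 0.998).

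Ntf5, which shares the receptor Ntrk2 with Bdnf, had 27.3 ± 0.683 CPM in K14;Nogo-A and 21.4 ± 1.55 CPM in wild-type (SD, n = 4 and 3). Its libraries did not overlap (26.4 to 28.1 CPM in K14;Nogo-A, 20.2 to 23.1 CPM in wild-type), in the direction opposite to Bdnf. Its log2 fold change of 0.35 ± 0.10 (SE, adjusted p = 0.227) is under the size of 0.5 that the thresholds ask for. Set per exon length, the ratio of Bdnf to Ntf5 was 0.0119, 0.0104, 0.00817 and 0.0074 in K14;Nogo-A, against 0.0244, 0.0247 and 0.0151 in wild-type. In each library Ntf5 was thus the far more abundant ligand of Ntrk2 on this scale. The ratio could not overlap between the genotypes, since neither gene did and their differences ran in opposite directions.

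Of the neurotrophin receptors, Ntrk2 was the most abundant of the 9 genes in CPM, with a mean above that of 84.1% of the genes tested. Its gene (chr13:58806569-59133970, plus strand) has 10 transcripts, 7 of them coding, and includes forms with and without the kinase domain that a gene-level count adds together. Ntrk2 had 63.6, 93.5, 99.3 and 106.6 CPM in K14;Nogo-A, against 82.1, 81.1 and 114 CPM in wild-type. The genotypes overlapped in part, with the lowest library in K14;Nogo-A and the highest in wild-type, and the means were of 90.7 ± 18.9 CPM in K14;Nogo-A and 92.5 ± 18.9 CPM in wild-type (SD, n = 4 and 3). On the log2 scale the fold change was -0.03 ± 0.18 (SE), with a 95% interval of -0.42 to 0.37 and an adjusted p of 0.966. The lowest 3 values belonged to the libraries with high Y-linked genes, and the other 4 libraries had 93.5 to 114 CPM. With the Y-linked mean as a covariate the log2 fold change was -0.26 (unadjusted p = 0.0120, adjusted p = 0.300), and the part of sex in the levels was not tested beyond this.

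Ntrk3 (chr7:78175959-78738012, minus strand, 20 transcripts of which 6 are coding) had 3.74, 9.41, 4.43 and 9.91 CPM in K14;Nogo-A, against 8.35, 9.30 and 7.92 CPM in wild-type. The wild-type libraries lay close together, while K14;Nogo-A replicates 1 and 7 lay lowest of all libraries, and replicates 2 and 10 lay above the highest wild-type value. The fitted log2 fold change was -0.31 ± 0.32 (SE), with a 95% interval of -1.01 to 0.39 and an adjusted p of 0.707.

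Ngfr, the shared receptor without a kinase, had 62.2 ± 13.1 CPM in K14;Nogo-A and 90.2 ± 19.0 CPM in wild-type (SD, n = 4 and 3), without overlap (45.4 to 76.4 CPM in K14;Nogo-A, 78.3 to 112 CPM in wild-type). Its log2 fold change was -0.54 ± 0.18 (SE, adjusted p = 0.278), past the study's thresholds. The ratio of Ngfr to Ntrk2 per exon length overlapped between the genotypes, at 3.52 to 4.31 in K14;Nogo-A, against 3.93 to 7.74 in wild-type. Members of the sortilin family bind pro-neurotrophins together with Ngfr. Sort1 had a log2 fold change of -0.12 ± 0.10 (SE), Sorcs1 of -0.25 ± 0.45 (SE) and Sorcs2 of 0.18 ± 0.15 (SE), none of them past the thresholds, and Sorcs3 had at most 6 counts and was not tested.

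Of the GDNF family ligands, Gdnf is the factor that acts through Gfra1 and Ret on enteric and motor neurons and on the ureteric bud. The gene (ENSMUSG00000022144, chr15:7810846-7837575, plus strand) had 4.48, 1.24, 0.976 and 2.06 CPM in K14;Nogo-A, against 3.84, 3.43 and 2.74 CPM in wild-type. K14;Nogo-A replicate 1 was the highest of the 7 libraries, and the other 3 K14;Nogo-A libraries were below all wild-type libraries. The means were 2.187 ± 1.59 CPM in K14;Nogo-A and 3.34 ± 0.558 CPM in wild-type (SD, n = 4 and 3). Its log2 fold change was -0.64 ± 0.44 (SE), with a 95% interval of -1.60 to 0.33 and an adjusted p of 0.564. Without K14;Nogo-A replicate 1 it was -1.24 (unadjusted p = 0.00133, adjusted p = 0.0669), past the study's thresholds, and with limma-voom on all 7 libraries -0.93 (unadjusted p = 0.0356, adjusted p = 0.308). Leaving out any of the other 6 libraries gave -0.74 to -0.38, none past the thresholds. The highest 3 values of Gdnf belonged to the libraries with high Y-linked genes, of which replicate 1 was the only K14;Nogo-A library. The fit without replicate 1 thus also changes the Y-linked balance of the groups. With the Y-linked mean as a covariate the log2 fold change was -0.31 (unadjusted p = 0.342, adjusted p = 0.717).

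The bases before the first RefSeq start of Gdnf are shown because this was the 1 window of the 15 with both a CRE core and a TATA box, at chr15:7809798-7810047 (GRCm38.p6, plus strand, credited to RefSeq as above). The annotated gene given above begins further downstream, at chr15:7810846, so that the window does not border that start. Capitals mark the CRE core as it reads on the reverse strand, with its leftmost base at -51 from the RefSeq start, and the TATA box at -31. In the Bdnf window the CRE core lies at -36. The other start of Gdnf held none of the 3 motifs, nor did the windows of Ntf3, Nrtn, Gfra1 and Ntrk2, and the 1 window of Artn held a heat shock element at -161.
Gdnf: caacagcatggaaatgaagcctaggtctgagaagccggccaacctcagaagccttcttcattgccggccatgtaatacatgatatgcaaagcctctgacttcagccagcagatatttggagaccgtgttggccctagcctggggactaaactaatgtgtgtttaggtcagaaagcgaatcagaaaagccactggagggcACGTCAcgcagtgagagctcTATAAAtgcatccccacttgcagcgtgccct

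Nrtn, which prefers the co-receptor Gfra2, was the 1 gene of the 9 with a positive fold change. It had 7.52, 6.98, 7.53 and 8.73 CPM in K14;Nogo-A, against 5.46, 6.43 and 8.59 CPM in wild-type. The K14;Nogo-A libraries lay within the upper part of the wild-type range or just above it. Its log2 fold change was 0.18 ± 0.18 (SE), with a 95% interval of -0.21 to 0.58 and an adjusted p of 0.700. Artn, the ligand of Gfra3 and a guide of sympathetic axons, had 6.55, 5.57, 6.38 and 8.69 CPM in K14;Nogo-A, against 4.51, 9.69 and 10.8 CPM in wild-type. All K14;Nogo-A values lay between wild-type replicate 3 and the other two wild-type replicates. This gave a log2 fold change of -0.28 ± 0.27 (SE), with a 95% interval of -0.88 to 0.32 and an adjusted p of 0.700, and without wild-type replicate 3 it was -0.58 (unadjusted p = 0.0154, adjusted p = 0.481). The last ligand of the family, Pspn, had at most 1 count per library and was not tested.

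Gfra1, the GPI-anchored co-receptor of Gdnf (ENSMUSG00000025089, chr19:58235604-58455909, minus strand), had 21.97, 17.6, 21.3 and 20.7 CPM in K14;Nogo-A, against 26.1, 38.1 and 22.6 CPM in wild-type. The K14;Nogo-A libraries lay close together, all below the lowest wild-type library, which was near to them, and wild-type replicate 8 stood highest. The means were 20.4 ± 1.94 CPM in K14;Nogo-A and 28.9 ± 8.14 CPM in wild-type (SD, n = 4 and 3). On the log2 scale the fold change was -0.51 ± 0.17 (SE), with a 95% interval of -0.87 to -0.15, an unadjusted p of 0.0100 and an adjusted p of 0.268. The exact two-sided permutation test gave p = 0.0286, the smallest that 35 arrangements can give. The value lies at the edge of the threshold of 0.5, since RLE scaling, DESeq2 and limma-voom gave -0.4988, -0.4983 and -0.4982, just under it in size, and without wild-type replicate 8 it was -0.25 (unadjusted p = 0.0909). An antisense gene, Gm16277, shares 7.6% of the Gfra1 exon bases.

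Ret, the kinase that all these co-receptors share (chr6:118151745-118197718, minus strand), had 6.92, 7.42, 7.18 and 8.999 CPM in K14;Nogo-A, against 6.84, 6.11 and 12.2 CPM in wild-type. Wild-type replicate 9 was the highest and wild-type replicate 8 the lowest of the 7 libraries, with all K14;Nogo-A libraries between them. The fitted log2 fold change was -0.12 ± 0.23 (SE), with a 95% interval of -0.62 to 0.38 and an adjusted p of 0.856, and it was 0.25 without wild-type replicate 9. The ratio of Gfra1 to Ret per exon length was 3.92, 2.93, 3.66 and 2.84 in K14;Nogo-A, against 4.70, 7.70 and 2.28 in wild-type. Wild-type replicate 9 had the lowest ratio of all libraries and the other wild-type libraries the highest.

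The other co-receptors had fold changes of both signs. Gfra2 had 17.3 ± 3.95 CPM in K14;Nogo-A and 30.5 ± 7.97 CPM in wild-type (SD, n = 4 and 3), with a log2 fold change of -0.82 ± 0.20 (SE, adjusted p = 0.199) and a slight overlap between the genotypes. Gfra3 had overlapping libraries, at 1.45 to 2.93 CPM in K14;Nogo-A, against 0.950 to 1.63 CPM in wild-type, with a log2 fold change of 0.76 ± 0.33 (SE, adjusted p = 0.358). Gfra4 had a log2 fold change of -0.05 ± 0.17 (SE). Of the other surface proteins that bind GDNF family ligands or Ret, Ncam1, a cell adhesion molecule that serves as a Ret-independent receptor, had 42.7 ± 8.23 CPM in K14;Nogo-A and 71.2 ± 12.6 CPM in wild-type, and its log2 fold change was -0.74 ± 0.16 (SE, adjusted p = 0.168). Sdc3, a heparan sulphate proteoglycan that binds GDNF, had 253 ± 54.4 CPM in K14;Nogo-A and 392 ± 44.2 CPM in wild-type, and its log2 fold change was -0.63 ± 0.16 (SE, adjusted p = 0.199). The libraries of both did not overlap between the genotypes. Gas1, a GPI-anchored protein related to the co-receptors, had a log2 fold change of -0.18 ± 0.13 (SE), and Gfral and its ligand Gdf15 had at most 5 counts per library and were not tested. Of the 15 relatives 11 were tested, of which 1 was higher (Gfra3) and 4 lower (Ngfr, Gfra2, Ncam1 and Sdc3) past the study's thresholds. Of all genes tested, 2.02% were higher and 2.74% lower past them. The median log2 fold change of the 11 was -0.18, beside -0.01 over all genes tested, and none had an adjusted p under 0.05.

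**Figure D2:**
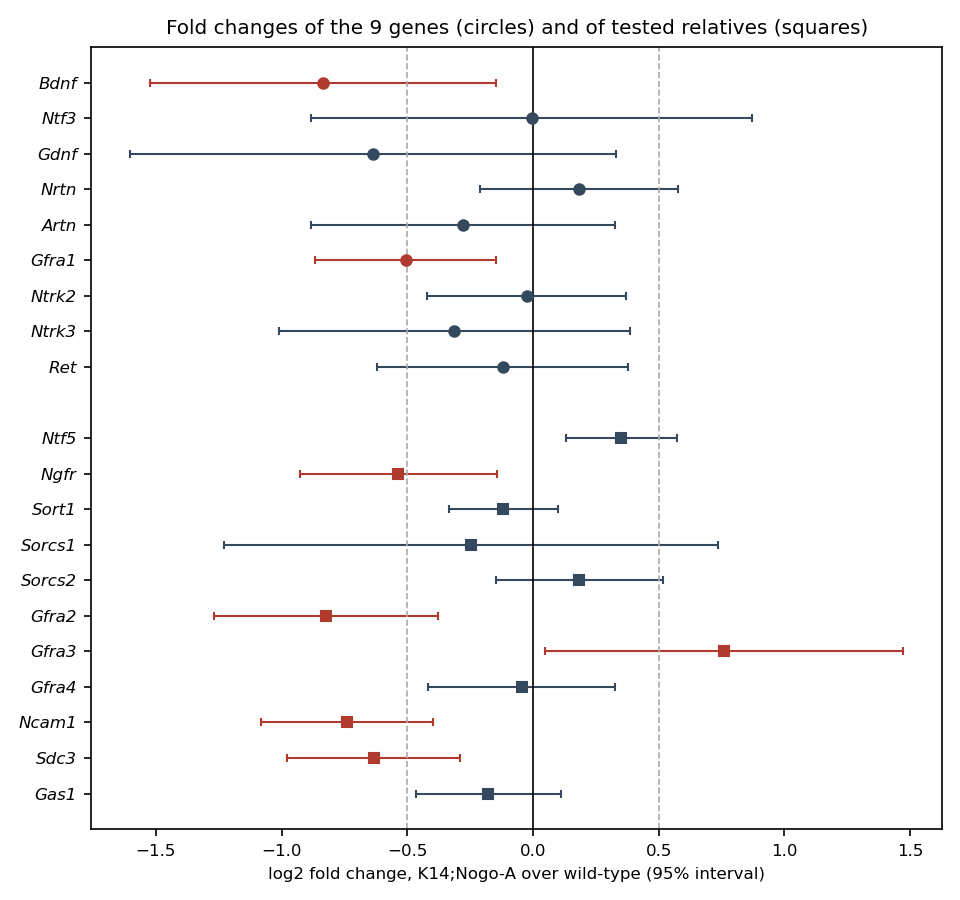
Log2 fold change of K14;Nogo-A over wild-type with its 95% interval for the 9 genes (circles) and the 11 tested relatives (squares); red marks genes past the study's thresholds, and dashed lines stand at -0.5 and 0.5. Bdnf (-0.84) and Gfra1 (-0.51) are the red circles, and of the red squares Gfra3 (0.76) lies on the positive side and Gfra2 (-0.82), Ncam1 (-0.74), Sdc3 (-0.63) and Ngfr (-0.54) on the negative side.

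Levels of different genes were compared as RPKM (CPM divided by exon length in kilobases, computed here from the union of the annotated exons). In K14;Nogo-A the order was Nrtn (7.52 ± 0.723 RPKM), Ntrk2 (4.70 ± 0.979), Gfra1 (3.72 ± 0.354), Artn (2.83 ± 0.555), Ret (1.13 ± 0.138), Ntf3 (0.666 ± 0.370), Gdnf (0.595 ± 0.434), Ntrk3 (0.228 ± 0.107) and Bdnf (0.0976 ± 0.0235; all SD, n = 4). Nrtn lay above Ntrk2, and Artn above Ret, without overlap, and the other neighbours in this order overlapped between libraries. In wild-type the order was Nrtn (6.67 ± 1.57 RPKM), Gfra1 (5.28 ± 1.49), Ntrk2 (4.80 ± 0.980), Artn (3.46 ± 1.39), Ret (1.24 ± 0.495), Gdnf (0.908 ± 0.152), Ntf3 (0.642 ± 0.233), Ntrk3 (0.283 ± 0.0234) and Bdnf (0.170 ± 0.0339; all SD, n = 3). There the neighbours Artn and Ret, Ntf3 and Ntrk3, and Ntrk3 and Bdnf did not overlap. The ranks depend on the length used: with the longest coding transcript, Ntrk2 stood first, at 10.4 RPKM in K14;Nogo-A and 10.6 RPKM in wild-type. Of the relatives, on the union of exons, Sdc3 (42.2 RPKM in K14;Nogo-A, 65.5 in wild-type), Sort1 (18.7 to 21.3 in K14;Nogo-A, 19.0 to 23.6 in wild-type), Ngfr (18.1 in K14;Nogo-A, 26.2 in wild-type) and Gas1 (8.59 to 10.8 in K14;Nogo-A, 8.97 to 12.7 in wild-type) were above all 9 genes in every library. The mean of Ntf5 (10.3 in K14;Nogo-A, 8.06 in wild-type) was also above the means of all 9 genes in both genotypes. Gfra2 (4.88 in K14;Nogo-A, 8.63 in wild-type) and Ncam1 (4.93 in K14;Nogo-A, 8.22 in wild-type) had means above those of all 9 genes in wild-type, but below Nrtn in K14;Nogo-A. Gfra4 (5.002 in K14;Nogo-A, 5.16 in wild-type) was near Ntrk2.

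**Figure D3:**
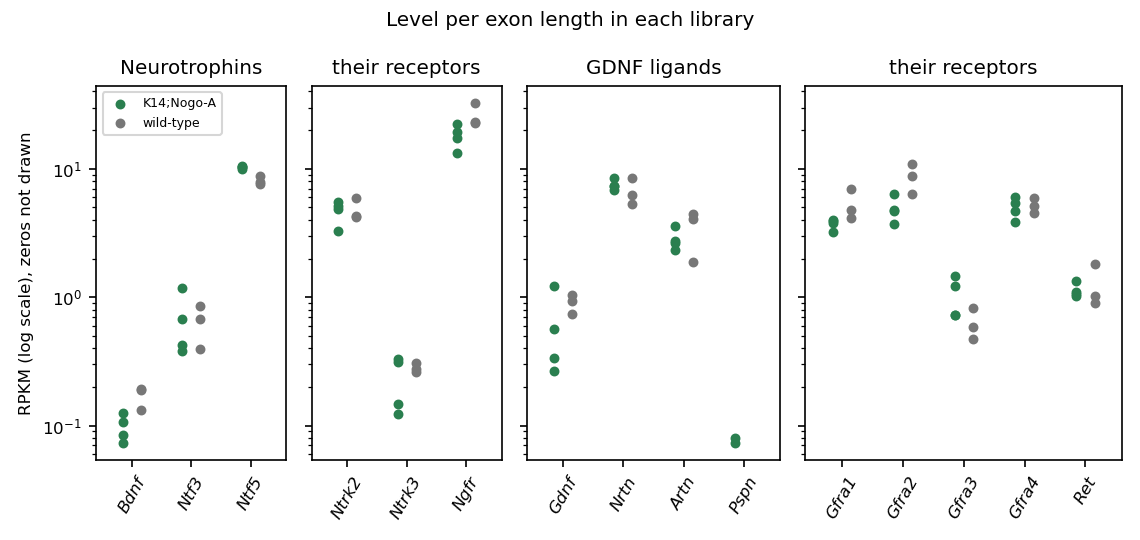
RPKM of neurotrophins, their receptors, GDNF family ligands and their receptors in each library, on a log axis, with K14;Nogo-A (green) left of wild-type (grey) for each gene; libraries at 0 are not drawn. Ntf5 lies above Bdnf and Ntf3 (mean 10.3 RPKM in K14;Nogo-A and 8.06 RPKM in wild-type), and Nrtn above Gdnf and Artn. Bdnf has the lowest mean of the 9 genes in both genotypes, and its points overlap those of Ntrk3 in K14;Nogo-A.

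Across libraries, the 9 genes followed different patterns. The Pearson correlation of log2 CPM over the 7 libraries, given as a description since the points share genotype and tissue composition, was highest for Bdnf and Gfra1 (r = 0.73), Ntrk2 and Ret (r = 0.73), Nrtn and Ret (r = 0.72) and Bdnf and Gdnf (r = 0.70), and lowest for Bdnf and Nrtn (r = -0.75). With each library taken as its deviation from the mean of its genotype, r was 0.35 for Bdnf and Gfra1 and 0.54 for Bdnf and Gdnf, against 0.72 for Ntrk2 and Ret and 0.86 for Nrtn and Ret, and it was lowest for Bdnf and Ntrk2 (r = -0.93). The mean of the 24 mesenchyme markers ran with Gfra1 (r = 0.84), Bdnf (r = 0.83) and Gdnf (r = 0.66), but not with Ntrk2 (r = -0.07), Ret (r = -0.01) or Ntf3 (r = -0.02). The mean of the 14 epithelium markers ran the other way for Gfra1 (r = -0.88), Bdnf (r = -0.87) and Gdnf (r = -0.76), and with Ntrk2 (r = 0.68). Gdnf ran most strongly against the 9 ameloblast markers (r = -0.93), which were lowest in K14;Nogo-A in replicate 1, its library with the highest Gdnf. Other lists ran with these genes as well. The immune cell markers (r = 0.82) and the Schwann cell and glial markers (r = 0.71) ran with Gfra1, and the Schwann cell and glial markers with Bdnf (r = 0.64). The Y-linked genes ran with Gdnf (r = 0.82), Bdnf (r = 0.79) and Gfra1 (r = 0.66), and against Ntrk2 (r = -0.86). The mean log2 CPM of the mesenchyme markers was lower in every K14;Nogo-A library than in any wild-type library. Of the 24 markers, 12 were separate between the genotypes, beside 11.5% of all genes tested. The sum of CPM over the 24 markers overlapped (14192 to 37952 in K14;Nogo-A, against 31483 to 47601 in wild-type). Within this sum, Col1a1 alone had 6190 to 23006 CPM in K14;Nogo-A, against 15652 to 28126.5 CPM in wild-type. Since the marker mean is separate between the genotypes, its r over all 7 libraries includes the difference between them. Within K14;Nogo-A, in the order of replicates used above, the marker means were 7.62, 7.44, 7.54 and 7.63. Bdnf did not follow them there, with log2 CPM of -0.23, -0.45, -0.76 and -0.93. Gfra1, at 4.46, 4.14, 4.42 and 4.38, was lowest where the markers were lowest. Within wild-type (replicates 3, 8 and 9) the marker means were 8.11, 8.20 and 8.02. There Bdnf had 0.34, 0.31 and -0.18 and Gfra1 4.71, 5.25 and 4.50. Both were lowest in wild-type replicate 9, where the markers were lowest. Lower Bdnf and Gfra1 and less mesenchymal RNA cannot be told apart in these samples.

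**Figure D4:**
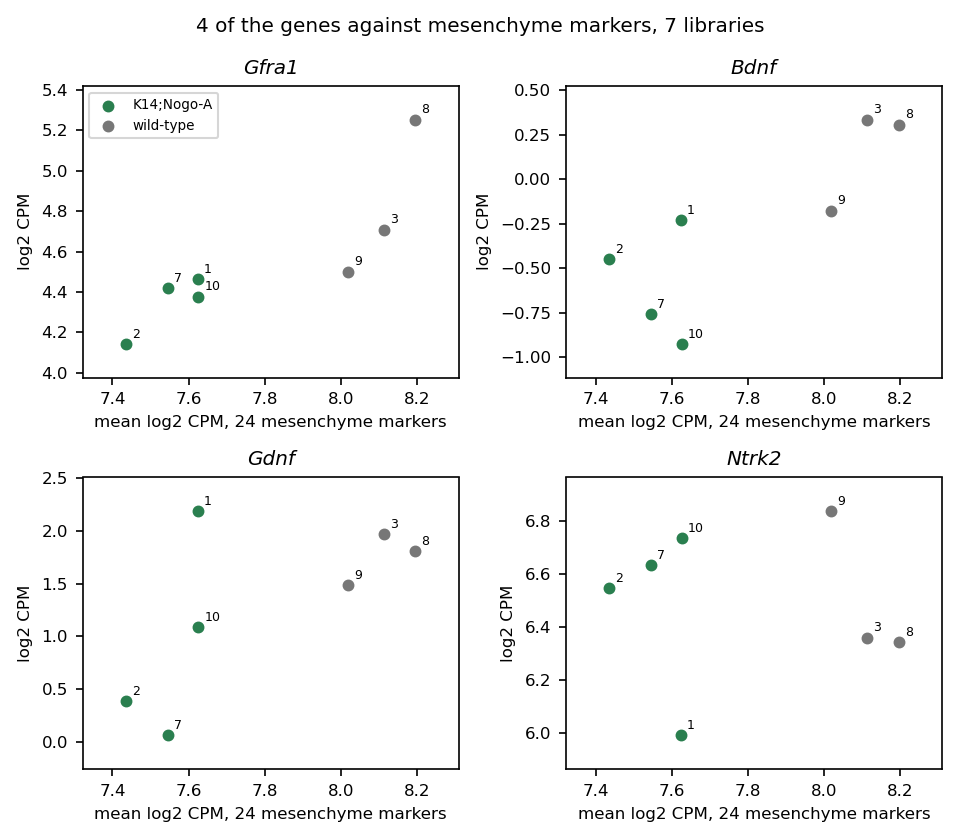
Log2 CPM of Gfra1, Bdnf, Gdnf and Ntrk2 (vertical axes) against the mean log2 CPM of the 24 mesenchyme markers (horizontal axes) in the 4 K14;Nogo-A (green) and 3 wild-type (grey) libraries, with replicate numbers. The green points lie at 7.44 to 7.63 and the grey points at 8.02 to 8.20 on the horizontal axis, with r = 0.84 for Gfra1, 0.83 for Bdnf, 0.66 for Gdnf and -0.07 for Ntrk2 over all 7 libraries. The genotypes are separate on the horizontal axis, so that r includes the difference between them.

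Markers of the other cell types that the tissue could hold were read in the same libraries. The counts past the thresholds stand beside 2.02% higher and 2.74% lower of all genes tested. Of the 13 Schwann cell and glial markers 1 was lower (Pmp22) past the thresholds, and their mean log2 CPM was 0.61 to 1.41 in K14;Nogo-A, against 0.77 to 1.69 in wild-type. Pmp22 (mean 49.1 CPM in K14;Nogo-A, 78.9 CPM in wild-type) and Mbp (50.03 CPM in K14;Nogo-A, 47.5 CPM in wild-type) were the most abundant of this list. The defining glial gene Sox10 had 0.875 ± 0.507 CPM in K14;Nogo-A and 1.51 ± 1.17 CPM in wild-type (SD, n = 4 and 3). Of the 13 neuron markers 8 were tested, with 1 higher (Th), and their mean log2 CPM was 0.83 to 1.22 in K14;Nogo-A, against 0.92 to 1.16 in wild-type. Tubb3 (mean 428 CPM in K14;Nogo-A, 411 CPM in wild-type) and Isl1 (85.6 CPM in K14;Nogo-A, 77.3 CPM in wild-type) were the most abundant of this list. Of the other 6 tested, Uchl1 (30.0 CPM in K14;Nogo-A, 24.02 CPM in wild-type), Th (28.9 CPM in K14;Nogo-A, 20.1 CPM in wild-type) and Stmn2 (16.5 CPM in K14;Nogo-A, 14.9 CPM in wild-type) were above 10 CPM, and Rbfox3, Syt1 and Elavl4 had means of 0.641 to 1.51 CPM. The 5 genes not tested, Elavl3, Snap25, Nefl, Nefm and Prph, were at means of 0.0198 to 0.218 CPM. The 12 endothelial and mural cell markers, led by Acta2 and Rgs5, had 4 lower past the thresholds, with a mean log2 CPM of 4.63 to 5.27 in K14;Nogo-A, against 5.23 to 5.35 in wild-type. The 12 immune cell markers, led by Csf1r and Cd68, had 2 lower, with 1.75 to 2.49 in K14;Nogo-A, against 2.17 to 2.89 in wild-type. The 14 epithelium markers had 1 higher (Krt17), with 7.93 to 8.21 in K14;Nogo-A, against 7.74 to 8.11 in wild-type. The 9 ameloblast markers had 3 higher (Amelx, Ambn and Klk4), with 7.79 to 9.22 in K14;Nogo-A, against 7.32 to 7.93 in wild-type. The 12 skeletal muscle markers, led by Acta1 and Mylpf, had 7 tested and 1 higher (Myh8), with -1.65 to -0.55 in K14;Nogo-A, against -1.35 to -0.75 in wild-type. The part of these cell types in the levels of the 9 genes was not tested.

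For each gene with a mean of at least 1 CPM, the 3 genes tested with the most similar log2 CPM over the 7 libraries were taken, which leaves out Bdnf. For Gfra1 they were Sap18 (r = 0.99), Actr3 and Cops3, and 265 genes reached r = 0.9. For Gdnf they were Ppp2r5a (r = 0.997), Fbxo45 and Sim2, among 214 genes at r = 0.9 or more. For Ntrk2 they were Actn4 (r = 0.99), Gpr25 and Fbln1, among 174. For Ret they were Tbc1d1 (r = 0.99), Slc7a7 and Gm48718, for Nrtn Grik5 (r = 0.98), Itfg2 and Grcc10, for Artn Idh3g (r = 0.97), Pitpnb and Zfp950, for Ntrk3 Fam193a (r = 0.97), Faxc and Nostrin, and for Ntf3 4930523C07Rik (r = 0.99), Dcp2 and Zdhhc15. No neighbour belonged to either family, whose genes are few among the 14791 tested, so that this says little about them.

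Of 35 genes that carry the signal from Trk receptors and Ret to the Ras-MAP kinase, PI3-kinase and phospholipase C routes, 34 were tested, none was higher past the thresholds and 3 were lower (beside 2.02% higher and 2.74% lower of all genes tested), and their log2 fold changes had a median of 0.02. The genes in question were the scaffold Gab2 (12.8 ± 1.43 CPM in K14;Nogo-A, 18.3 ± 1.76 CPM in wild-type, log2 fold change -0.51), the Ret-binding adaptor Dok6 (0.147 ± 0.0983 CPM in K14;Nogo-A, 0.523 ± 0.261 CPM in wild-type, log2 fold change -1.91 ± 0.56 SE) and the receptor-binding adaptor Grb10 (209 ± 32.7 CPM in K14;Nogo-A, 335 ± 55.3 CPM in wild-type, log2 fold change -0.68), with adjusted p-values of 0.153 to 0.233. Of 20 genes that respond to Ret or Trk signalling elsewhere, such as Etv4, Spry1, Dusp6 and Egr1, 19 were tested and none was past the thresholds, with a median log2 fold change of -0.03. The smallest p of this list belonged to Spred2, an inhibitor of the Ras-MAP kinase route, with 44.9 ± 3.57 CPM in K14;Nogo-A and 53.0 ± 0.897 CPM in wild-type and a log2 fold change of -0.24 (adjusted p = 0.318). Of 14 genes for proteases that mature pro-neurotrophins and for their inhibitors, 11 were tested, 1 was lower past the thresholds and the median was 0.07. This was the proprotein convertase Pcsk5, with 55.9 ± 13.3 CPM in K14;Nogo-A and 87.7 ± 7.45 CPM in wild-type and a log2 fold change of -0.65 (adjusted p = 0.199), and Mmp7 was at 0 in all libraries. None of the genes in these 3 lists had an adjusted p under 0.05 by edgeR, and of the 64 tested 4 were at an unadjusted p under 0.05 higher and 7 lower, beside 6.25% higher and 6.66% lower of all genes tested.

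Single libraries bore on several of the 9 genes. Without K14;Nogo-A replicate 1, which stood apart from its group, 3 of the 9 genes were past the thresholds, Bdnf (-0.98), Gdnf (-1.24) and Gfra1 (-0.54), all lower in K14;Nogo-A. In that fit 999 of the 14771 genes tested were past them. The library left out was the only K14;Nogo-A library with high Y-linked genes, which wild-type replicates 3 and 8 also had. The part of this in the fit was not tested. Bdnf stayed between -0.98 and -0.72 on the log2 scale whichever library was left out, but passed the study's thresholds in 3 of these 7 fits, namely when the library left out was K14;Nogo-A 1, K14;Nogo-A 2 or wild-type 9. Gfra1 passed in 5 of the 7, with values from -0.64 to -0.44 except for -0.25 without wild-type replicate 8. Nrtn remained positive (0.04 to 0.38) and Ntrk3 negative (-0.55 to -0.11) in all 7 fits, none of them past the thresholds. Ntf3 (-0.43 to 0.25), Ntrk2 (-0.11 to 0.16) and Ret (-0.30 to 0.25) took either sign. With the mesenchyme mean as a covariate, whose range is separate in each genotype, the log2 fold change was -0.29 for Bdnf, 0.94 for Gfra1 and 2.32 for Gdnf, none past the thresholds, and with the Y-linked mean as a covariate it was -0.59 for Bdnf, -0.37 for Gfra1 and -0.31 for Gdnf.

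**Figure D5:**
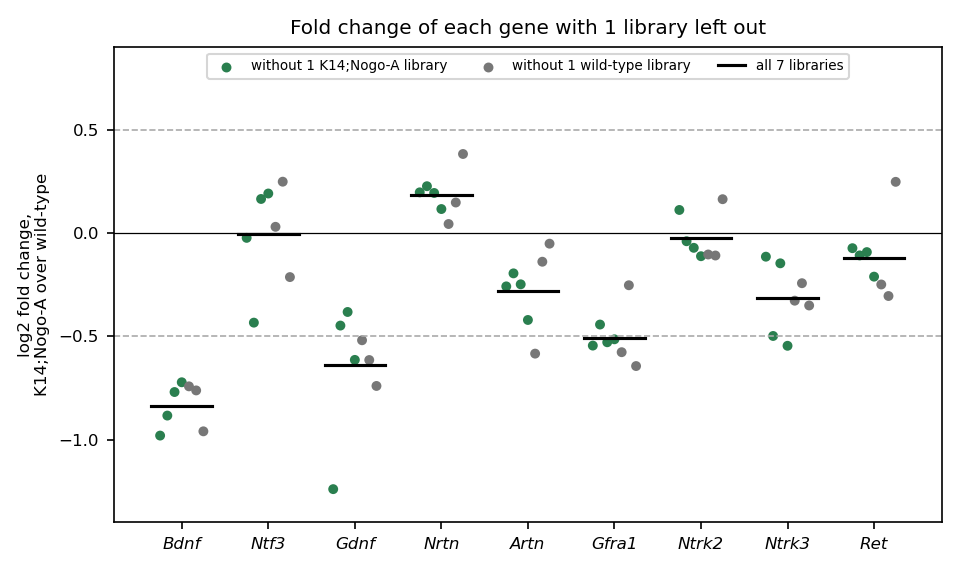
Log2 fold change of K14;Nogo-A over wild-type for the 9 genes with 1 K14;Nogo-A library (green) or 1 wild-type library (grey) left out, with the value from all 7 libraries as a black bar and dashed lines at -0.5 and 0.5. Gdnf without K14;Nogo-A replicate 1 lies lowest (-1.24), Gfra1 without wild-type replicate 8 comes nearest to 0 of its points (-0.25), and all points of Bdnf are under -0.5.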

How the data were processed

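Poly(A) RNA of 7 libraries was analysed by Illumina sequencing. The authors deposited raw counts for each Ensembl gene, which they obtained with STAR 2.7.1 on GRCm38 (Ensembl release 91) and featureCounts, after base calling with bcl2fastq 2.19. Adapters were removed with Trimmomatic per the labels and with fastp per the methods of the study. The strand setting was not given in the sources used here. A further wild-type pup that the design mentions is not analysed here. No pair of libraries agreed within sampling noise (lowest chi-square per degree of freedom 16.1).

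IDs were joined to GENCODE M21 symbols (25664 of 25700 matched, and the unmatched 36 took 0.0348% of all counts). A gene was tested if 50% or more of the libraries of 1 genotype had 10 or more counts for it, using the robust quasi-likelihood test of edgeR 4.0.16 (R 4.3.3), TMM normalised, without covariates, and adjusted over all 14791. CPM used the TMM totals, and log2 CPM a prior count of 2. Each library is 1 pup, and p-values measure the spread between pups. Alternatives were RLE and upper-quartile factors, the likelihood-ratio test, DESeq2 1.42.0, limma-voom (limma 3.58.1), 3 other filters, each library left out, the mean log2 CPM of mesenchyme markers or Y-linked genes as a covariate, thinning to the smallest total, 2 other thresholds and, chosen after seeing the data, the length of the longest coding transcript. The script was tested on simulated counts.

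The 9 genes, the relatives, the 3 pathway lists, the 8 marker lists and the tests were chosen with earlier results of these data known. Some genes of these lists are not reported here. All 9 genes and the 15 relatives are named, with genes past the thresholds (or the smallest p) of the pathway lists, the 3 genes most like each of the 9 other than Bdnf, and the 2 most abundant genes of each marker list. Sox10, the other neuron markers, Etv4, Spry1, Dusp6, Egr1 and Mmp7 were named after their values were seen. So were the markers past the thresholds in the glial, neuron, epithelium, ameloblast and muscle lists. Those of the mesenchyme, endothelial and immune lists are given as counts.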

Additional observations from a re-analysis of the deposited data

How the results depend on the processing

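Of the 9 genes, 2 passed the study's thresholds with all libraries, 1 with RLE size factors, with DESeq2 and where the fold had to be 1.5 or more, 0 with the mesenchyme markers or the Y-linked genes as covariate, and 0 to 3 with 1 library left out (0 when wild-type replicate 8 was left out, 3 when K14;Nogo-A replicate 1 was). The other alternatives gave 2, which were Bdnf and Gfra1, except with limma-voom, where they were Bdnf and Gdnf. Over all 14791 genes tested, 705 were past the thresholds in the main fit, 706 with RLE size factors and 698 with DESeq2. The mesenchyme covariate gave 741 and the Y-linked covariate 564. Leaving out 1 library gave 386 (wild-type replicate 8) to 1076 (wild-type replicate 9), and 999 for K14;Nogo-A replicate 1. No alternative brought any of the 9 to an adjusted p under 0.05. Over all genes tested, the alternatives called 0 (mesenchyme covariate, among others) to 288 (DESeq2) at an adjusted p under 0.05. DESeq2 gave no adjusted p for Bdnf and Ntf3. The mesenchyme covariate reversed Gdnf to 2.32, Artn to 0.22 and Gfra1 to 0.94 on the log2 scale and gave -1.22 for Ret, -1.08 for Ntf3, -0.91 for Ntrk2 and -0.75 for Ntrk3, and since no marker mean lies in the range of the other genotype this fit extrapolates. Ntf3, at -0.01, was 0.0021 with RLE, 0.0146 with the likelihood-ratio test, 0.0273 with DESeq2, 0.25 with the Y-linked covariate and -0.43 to 0.25 with 1 library left out. Ret was 0.0129 with limma-voom and -0.30 to 0.25 with 1 library left out, and Ntrk2 -0.11 to 0.16, where the cause was not tested. The median of all genes moved by less than 0.1 under every scaling. Only Bdnf, Nrtn and Ntrk3 kept their sign in all 18 alternative fits. Bdnf and Ntf3 had only 12 to 60 counts per library, and thinning all libraries to the smallest total gave -0.91 for Bdnf (unadjusted p = 0.0241) and -0.05 for Ntf3. The paper calls the controls littermates, but the labels do not give the litter of each pup, so that no paired analysis was possible.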
